A study of Mus musculus with 16 samples.

Results

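The double knockdown of the transcription factors Tfap2c and Tead4 in mouse 8-cell embryos was compared here with the value that the changes after each single knockdown add up to. For each gene, the difference between the double knockdown and the GFP control was taken on the scale log2(FPKM + 1), and the changes of both single knockdowns were subtracted from it. FPKM, the deposited unit of expression, is the number of fragments of a gene scaled to its length and to the size of the library. The result is called the non-additive part: 0 means that the fold changes of FPKM + 1 in the single knockdowns multiplied. A value above 0 means that the double knockdown was higher than that, and a value below 0 that it was lower. At low FPKM, fold changes of FPKM + 1 are smaller than those of FPKM itself. A gene was tested when 4 or more of the 16 libraries held 1 FPKM or more of it, which left 11422 of the 43437 genes in the table.

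Tfap2c encodes AP-2 gamma, a DNA-binding factor of the AP-2 family. Tead4 encodes a TEAD factor, which binds DNA itself but needs cofactors such as YAP to activate genes, and the Hippo pathway keeps YAP out of the nucleus in inner cells. Both factors are known for their part in forming the trophectoderm, the outer layer of the blastocyst that later makes the placenta.

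The groups were embryos injected at the zygote stage with double-stranded RNA (dsRNA) against GFP (the control, a sequence foreign to the mouse), Tfap2c, Tead4, or Tfap2c and Tead4. Each group had 4 libraries, each from a pool of 10 embryos, about 80 cells, cultured in KSOM medium and stripped of the zona pellucida. In each group 2 libraries came from cross A, with C57BL/6J×CBA/J mothers, and 2 from cross B, with C57BL/6J×DBA/2J mothers. The fathers were C57BL/6J×DBA/2J for the first library listed of each cross, and the number after DBA differs in the other labels. Libraries are called A1, A2, B1 and B2 by cross and number, and values are always given in that order. The sources used here do not give the amount of dsRNA, or whether the double injection held as much of each as a single one. Whether the pools came from separate cultures is not stated in the labels, and the p-values then cover only how these pools vary, which may be technical. The embryos are pools of whole embryos, so fewer cells with a transcript and less of it per cell cannot be told apart.

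FPKM sums ran from 799260 to 874436 per library, and 10049 to 10504 genes reached 1 FPKM. Embryo and oocyte markers had high sums in every library, and 10 of 11 passed 1 FPKM in at least 1 library. Their sums were 7940 to 8853 FPKM in the GFP control and 7688 to 8524 in the Tead4 knockdown, and lower without overlap in the Tfap2c knockdown (5651 to 6908) and the double knockdown (5930 to 7181). Of 14 cumulus cell markers 1 reached 1 FPKM in any library, and their sums were 0.495 to 1.48 FPKM, with Col3a1, Ptx3, Inhba and Foxl2 at 0. Of 10 sperm markers 1 did, with sums of 0.758 to 3.22 FPKM and Spata18 and Smcp at 0. The 9 blood markers summed to 15.1 to 30.6 FPKM in the GFP control, 36.1 to 67.3 in the Tfap2c knockdown, 27.4 to 56.9 in the Tead4 knockdown and 46.5 to 83.7 in the double knockdown. Ptprc, Hbb-bs and Hbb-bt were at 0, and alpha-globin genes and Cd68 made up the 3 markers above 1 FPKM. The part of these transcripts in the results was not tested.

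Each targeted transcript was lower in every library injected against it than in any GFP control library. Tfap2c measured 43.2, 38.8, 28.3 and 32.4 FPKM in the GFP control and 13.9, 15.4, 16.1 and 17.8 FPKM in the Tfap2c knockdown. It measured 37.1, 34.8, 33.7 and 33.4 FPKM in the Tead4 knockdown and 16.4, 16.1, 16.4 and 15.7 FPKM in the double knockdown. The double knockdown thus lay among the Tfap2c knockdown libraries, and the non-additive part of Tfap2c was 0.05 (95% interval -0.29 to 0.40, limma adjusted p = 0.932). Tead4 measured 58.4, 46.5, 47.7 and 41.8 FPKM in the GFP control, 19, 25.9, 37.4 and 30.8 in the Tfap2c knockdown, 8.05, 5.57, 5.99 and 11 in the Tead4 knockdown and 8.17, 5.4, 9.62 and 14.8 in the double knockdown. Tead4 was lower after Tfap2c dsRNA alone too, by -0.79 on the log2 scale (limma adjusted p = 0.0192). Its non-additive part was 1.04 (95% interval 0.33 to 1.74) and did not pass (limma adjusted p = 0.184). Both targets were reduced and not abolished, to means of 15.8 FPKM of Tfap2c and 7.66 FPKM of Tead4 in the single knockdowns.

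In the double knockdown 86 genes departed from the sum of the single changes, 0.753% of the 11422 genes tested (limma, Benjamini-Hochberg adjusted p under 0.05). Of these 44 were above the predicted value (0.385%) and 42 below it (0.368%). By comparison 3377 genes passed for the Tfap2c knockdown against the GFP control (29.6%), 700 for the Tead4 knockdown (6.13%) and 2872 for the double knockdown (25.1%). The non-additive part of the genes above ran from 0.57 to 3.93 with a median of 1.31, and that of the genes below from -2.71 to -0.67 with a median of -1.13. The median over all genes tested was -0.06. The last genes past the threshold, Fam118b, Desi1 and Klhl21, had an adjusted p of 0.0473, and the next ones, Endog, Socs1 and Slc16a1, 0.0521. All 86 genes had the same sign in cross A and in cross B. They were chosen on the libraries of both crosses together, so this was largely built in and is no replication. Fitted alone, with 2 libraries a group, cross A called 2 genes and cross B 3. A test of the difference between the crosses called 0 genes by limma, with 757 at an unadjusted p under 0.05 (6.63%). At an unadjusted p under 0.05, 1369 genes (12%) had a non-additive part.

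**Figure D1:**
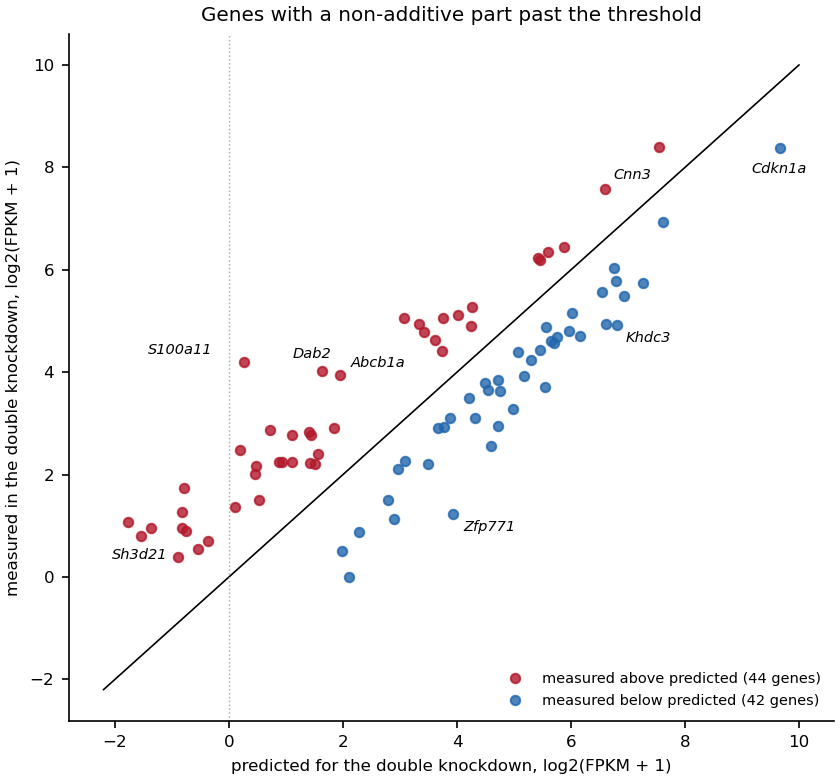
Predicted against measured mean of the double knockdown, both in log2(FPKM + 1), for the 86 genes with a non-additive part past the threshold; each point is 1 gene, and the black line marks equal values. The 44 red genes lie above the line and the 42 blue ones below it, and 10 of the red ones lie left of the dotted line, where the predicted value is under 0.

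Most of these genes fell into a pair of mirror-image shapes. Of the 44 genes above the predicted value, 32 were below the control in both single knockdowns, 11 were below it after Tead4 dsRNA and above it after Tfap2c dsRNA, and 1 was above it in both. Of the 42 below the predicted value, 39 were above the control in both single knockdowns and 3 were above it after Tead4 dsRNA and below it after Tfap2c dsRNA. Because the single changes enter the non-additive part with a minus sign, these signs partly follow from how it is built and are given as a description. Among genes whose single changes had the same sign, the double knockdown was closer to the control than either single knockdown in 10 of those above the predicted value and 25 of those below it. The genes were chosen on these same values, so these counts are a description too.

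Leaving out each of the 16 libraries in turn left 10 genes past the threshold every time: Sh3d21, Abcb1a, Cnn3, S100a11 and Zfp110 above the predicted value, and Defb19, Zfp771, Cdkn1a, Khdc3 and Unc119b below it. Their highest adjusted p over these 16 fits was 0.00596 for Sh3d21, and between 0.0265 (Abcb1a) and 0.050 (Khdc3, under the threshold before rounding) for the others. All 86 kept their sign and an unadjusted p under 0.05 in all 16 fits, with adjusted p values up to 0.107. Some genes described below passed in few of these fits, such as Havcr1 in 1 and Lin28a, E2f5 and Ier3 in 2.

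Promoter sequences are shown for those of the 10 genes whose promoter held the letters of a site for either factor. RefSeq promoters, 250 bases before to 50 after the start of the gene (build GRCm38.p6), were matched for 7536 of the 11412 symbols tested and for 65 of the 86 genes. They were searched on both strands for GCCNNNGGC, the core bound by AP-2 factors, and for GGAATG or its reverse complement CATTCC, the core bound by TEAD factors. Capitals mark the matches. Sh3d21 lies on the minus strand at chr4:126163292-126163591, Abcb1a on the plus strand at chr5:8566841-8567140, Cnn3 on the plus strand at chr3:121426291-121426590 and Unc119b on the minus strand at chr5:115134926-115135225.
Sh3d21: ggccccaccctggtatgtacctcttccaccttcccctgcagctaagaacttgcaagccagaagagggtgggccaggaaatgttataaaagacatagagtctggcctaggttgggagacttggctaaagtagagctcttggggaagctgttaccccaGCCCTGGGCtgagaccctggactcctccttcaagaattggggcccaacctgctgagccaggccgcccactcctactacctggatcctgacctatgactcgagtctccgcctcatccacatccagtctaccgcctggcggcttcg
Abcb1a: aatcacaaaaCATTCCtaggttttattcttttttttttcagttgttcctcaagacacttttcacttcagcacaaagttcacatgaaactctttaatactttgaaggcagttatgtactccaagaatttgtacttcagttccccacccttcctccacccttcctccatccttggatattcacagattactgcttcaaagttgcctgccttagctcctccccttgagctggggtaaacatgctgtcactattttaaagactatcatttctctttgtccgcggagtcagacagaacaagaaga
Cnn3: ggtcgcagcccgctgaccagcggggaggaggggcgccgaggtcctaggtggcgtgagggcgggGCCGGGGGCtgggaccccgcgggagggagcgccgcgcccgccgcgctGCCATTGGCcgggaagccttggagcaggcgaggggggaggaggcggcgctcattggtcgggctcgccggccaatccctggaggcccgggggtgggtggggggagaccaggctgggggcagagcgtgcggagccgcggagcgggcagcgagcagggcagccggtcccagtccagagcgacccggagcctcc
Unc119b: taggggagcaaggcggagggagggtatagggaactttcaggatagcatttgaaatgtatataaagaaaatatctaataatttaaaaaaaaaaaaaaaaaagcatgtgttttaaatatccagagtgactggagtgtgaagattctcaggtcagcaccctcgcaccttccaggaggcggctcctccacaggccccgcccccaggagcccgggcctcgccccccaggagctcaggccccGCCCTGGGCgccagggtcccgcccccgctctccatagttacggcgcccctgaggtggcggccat
The AP-2 letters stood once in the promoters of Sh3d21 and Unc119b, from position -94 and -14 relative to the start used. They stood at 2 places in that of Cnn3, from -187 and -140. The start used for Sh3d21 lies inside the gene, which on its strand begins at 126163518. The TEAD letters stood once in the promoter of Abcb1a, from position -240. Over the 65 genes with a promoter, 27.7% held the AP-2 letters and 12.3% the TEAD letters, against 24.3% and 11.7% of all 7536. Both stood in 3.08% of the 65 and 2.44% of all. The shares in the genes with a non-additive part were thus near those of all promoters, and a match is no evidence of binding.

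Among the 32 genes that were below the control in both single knockdowns, the double knockdown was by median about as low as the single ones. The median change was -1.15 after Tfap2c dsRNA, -1.30 after Tead4 dsRNA and -1.12 after both. That it was less low than the sum follows from how the set is built, so these values are a description. Of the 32 genes, 26 passed as lower after Tfap2c dsRNA alone (13.2% of all genes did) and 31 after Tead4 dsRNA alone (2.78%). In both single knockdowns 25 passed, and 26 in the double knockdown (25.1% of all genes did). The single changes enter the non-additive part, so these counts partly follow from the choice of genes. In the comparison of the double with the Tfap2c knockdown, 1 of the 32 passed, Gm4340, where 0.14% of all genes did. In that with the Tead4 knockdown 15 of the 32 passed, where 23.7% of all genes did. These went in either direction, such as S100a11 with a change of 1.31 and Etfb with -0.58.

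Sh3d21, which encodes a protein with an SH3 domain, had the lowest adjusted p. It measured 7.17, 6.62, 9.23 and 8.19 FPKM in the GFP control, 0.18, 0.083, 0.82 and 0.618 in the Tfap2c knockdown, 1.09, 0.765, 1.21 and 1.6 in the Tead4 knockdown and 0.775, 0.381, 0.417 and 1.6 in the double knockdown. All 12 knockdown libraries lay far below the control, and the double knockdown lay among the single ones. Its non-additive part was 2.34 (SE 0.24, limma adjusted p = 0.00112). The predicted value was -1.55 on the log2(FPKM + 1) scale, below 0, which no library can reach. A prediction below 0 can arise because 1 is added to FPKM, while multiplied fold changes of FPKM itself cannot fall below 0. Of the 86 genes 10 had such a prediction, against 89 of all genes tested. For these the non-additive part had to be above 0 whatever the double knockdown measured.

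S100a11, a calcium-binding protein of the S100 family, had the highest non-additive part. The GFP control measured 77.6, 55.4, 205 and 237 FPKM, so cross B was higher than cross A already without a knockdown. The Tfap2c knockdown measured 14.3, 13, 23.7 and 27.6 FPKM, the Tead4 knockdown 3, 1.02, 14.1 and 23.3 FPKM and the double knockdown 9.71, 5.85, 20.9 and 68.9 FPKM. Every knockdown library was below both control libraries of its own cross. The change was -2.62 on the log2 scale after Tfap2c dsRNA, -4.04 after Tead4 dsRNA and -2.73 after both, where the single changes add up to a value near 0 FPKM (0.199). This gave a non-additive part of 3.93 (SE 0.55, limma adjusted p = 0.00851), with 3.78 in cross A and 4.09 in cross B.

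Dab2, an adaptor of clathrin-mediated endocytosis, was lost mainly after Tead4 dsRNA. It measured 61.8, 61.5, 90.3 and 77.9 FPKM in the GFP control and 47.2, 28.9, 54.9 and 50.6 in the Tfap2c knockdown, whose difference did not pass (limma adjusted p = 0.0964). It measured 3.34, 3.06, 2.2 and 10.2 FPKM in the Tead4 knockdown and 13.3, 8.52, 16.9 and 28.4 in the double knockdown. The double knockdown was thus 1.71 above the Tead4 knockdown on the log2 scale (limma adjusted p = 0.000821), with library B2 of the Tead4 knockdown overlapping it. The non-additive part was 2.40 (SE 0.42, adjusted p = 0.0262 by limma). It passed in 8 of the 16 fits with a library left out, with the highest adjusted p, 0.0626, without double knockdown A1.

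Vgll4 encodes a cofactor that binds TEAD proteins and competes with YAP for them. It measured 13.9, 14.2, 28.5 and 28.3 FPKM in the GFP control, 3.64, 4.41, 13.7 and 11.9 in the Tfap2c knockdown, 2.52, 5.25, 7.37 and 10.1 in the Tead4 knockdown and 4.07, 2.66, 9.87 and 12.1 in the double knockdown. Within each cross all 3 knockdown groups were below the control, and the double knockdown overlapped both single ones. This gave a non-additive part of 1.43 (SE 0.26, limma adjusted p = 0.0279), and 7 of the 16 fits with a library left out kept the call.

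Zfp110, a zinc finger protein gene, measured 9.06, 9.13, 10.2 and 12.3 FPKM in the GFP control, 4.18, 3.01, 3.93 and 3.64 in the Tfap2c knockdown, 3.35, 3.41, 3.78 and 3.5 in the Tead4 knockdown and 3.89, 3.26, 2.84 and 5.31 in the double knockdown. The knockdown groups overlapped, and the control lay above all of them. Its non-additive part was 1.32 (SE 0.21, limma adjusted p = 0.0192). Zfp110 was chosen for description after its values were seen, because it stayed past the threshold in all 16 fits.

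Other genes of this shape included Pdzd3, a PDZ domain scaffold protein, with means of 7.58 ± 0.888 FPKM in the GFP control (SD, n = 4), 1.96 ± 0.26 after Tfap2c dsRNA, 0.697 ± 0.52 after Tead4 dsRNA and 1.11 ± 0.941 after both. Tmem17, a membrane protein of the base of cilia, had means of 10.4 ± 8.08, 0.985 ± 0.866, 1.88 ± 1.01 and 1.85 ± 1.99 FPKM (SD, n = 4) in the same order. Mtm1, the lipid phosphatase myotubularin, had 7.92 ± 1.97, 3.66 ± 1.02, 2.68 ± 1.07 and 3.84 ± 1.06 FPKM. In all 3 genes both single knockdowns were below the control and the double knockdown was no lower than the lower of them. Their non-additive parts were 1.78, 2.10 and 1.36 (limma adjusted p = 0.0262, 0.029 and 0.029). The predicted log2 values of Pdzd3 and Tmem17, -0.83 and -0.82, were below 0, so the sign of their non-additive part was fixed.

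Mpzl2, an adhesion protein of the immunoglobulin type, and Vnn1, the enzyme pantetheinase, followed the pattern of Dab2. Mpzl2 measured 0.614, 0.742, 0.572 and 1.11 FPKM in the Tead4 knockdown and 5.17, 2.01, 3.48 and 3.94 in the double knockdown, without overlap, against a GFP control mean of 7.24 ± 1.51 FPKM (SD, n = 4). Vnn1 measured 13.2, 16.6, 7.26 and 11.8 FPKM in the Tead4 knockdown and 38.4, 18.5, 39.5 and 26.9 in the double knockdown, without overlap, against a control mean of 69.5 ± 11.6 FPKM. Neither passed for Tfap2c dsRNA alone (limma adjusted p = 0.342 and 0.303). The non-additive parts of Mpzl2 and Vnn1 were 1.69 and 1.59 (limma adjusted p = 0.0395 and 0.0422). They passed in only 3 and 1 of the 16 fits with a library left out. Marveld2 is the tight junction protein tricellulin, and its means were 4.56, 2.61, 1.19 and 1.84 FPKM in the GFP control, the Tfap2c, the Tead4 and the double knockdown. Its non-additive part was 0.98 (limma adjusted p = 0.0459).

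Lin28a encodes an RNA-binding protein that blocks the maturation of let-7 microRNAs. It measured 5.14, 5.19, 4.25 and 3.78 FPKM in the GFP control, 5.29, 4.2, 4.18 and 3.87 in the Tfap2c knockdown, 2.98, 2.29, 1.81 and 1.38 in the Tead4 knockdown and 4.87, 4.93, 3.43 and 4.02 in the double knockdown. The Tead4 knockdown lay below all other libraries, while the double knockdown overlapped the control. The non-additive part was 0.84 (SE 0.17, limma adjusted p = 0.038). Gm4340, a gene of the 2-cell stage, measured 3.72, 2.55, 1.32 and 2.69 FPKM in the GFP control, 0, 0.118, 0.687 and 2.44 after Tfap2c dsRNA, 1.56, 0.909, 1.18 and 2.55 after Tead4 dsRNA and 3.73, 4.32, 5.67 and 4.73 after both. It was thus highest in the double knockdown, with a non-additive part of 2.28 (limma adjusted p = 0.0334), but it belongs to a family of near-identical copies, between which the authors' counting may split reads.

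**Figure D2:**
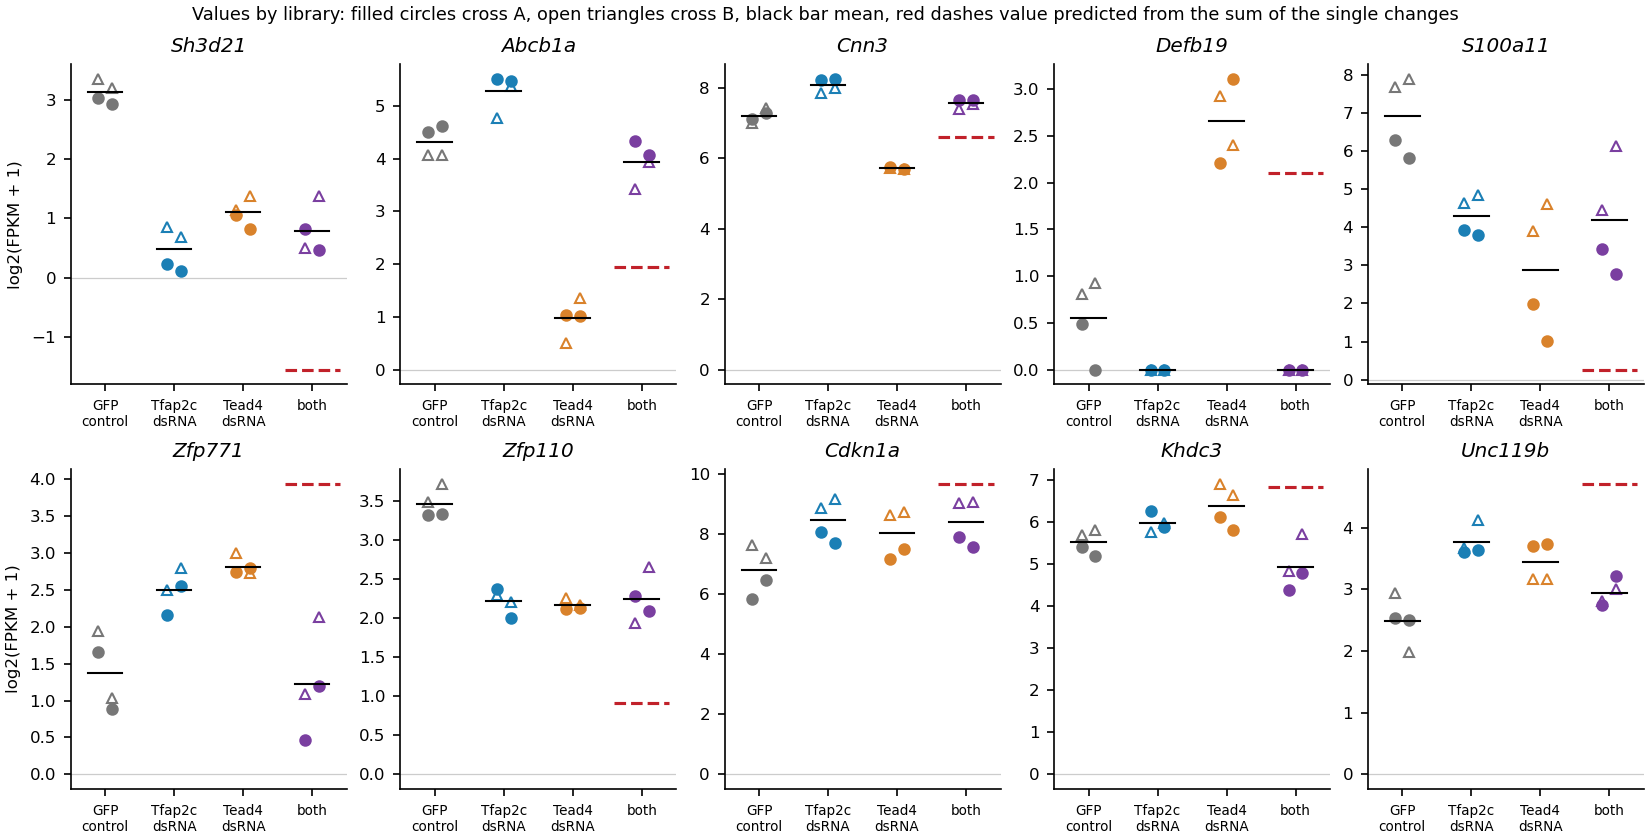
log2(FPKM + 1) of the 10 genes that stayed past the threshold with each library left out, by group; points are libraries (filled circles cross A, open triangles cross B), black bars are group means and red dashes the value predicted for the double knockdown. The double knockdown libraries lie above the red dashes for Sh3d21, Abcb1a, Cnn3, S100a11 and Zfp110 and below them for Defb19, Zfp771, Cdkn1a, Khdc3 and Unc119b.

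A second set of 11 genes went in opposite directions after the single knockdowns. These genes were Abcb1a, Cnn3, Tmem38b, Ube2h, Akr1b8, Igf2bp1, Havcr1, Clic3, Pla2g7, Gm6712 and Fam118b. All 11 were lower after Tead4 dsRNA alone and 5 were higher after Tfap2c dsRNA alone (limma adjusted p under 0.05). Of all genes 2.78% and 16.3% were, and the choice of genes by the non-additive part raises such counts. The median change was -1.49 after Tead4 dsRNA, 0.41 after Tfap2c dsRNA and 0.09 after both. That all 11 were higher in the double than in the Tead4 knockdown follows from how the set is built. Against the control, their change in the double knockdown ran from -0.77 (Clic3) to 0.71 (Akr1b8), and 4 of the 11 passed (25.1% of all genes did). The level of Tead4 in those libraries, given above, overlapped that of the Tead4 knockdown and was on average higher in cross B. Whether the level of Tead4 had a part in these values was not tested.

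Abcb1a, the drug efflux pump P-glycoprotein, measured 21.7, 23.6, 15.8 and 15.9 FPKM in the GFP control and 44.8, 43.6, 26.4 and 40.8 FPKM in the Tfap2c knockdown. It measured 1.04, 1.03, 0.422 and 1.56 FPKM in the Tead4 knockdown and 19.1, 15.9, 9.81 and 14.3 FPKM in the double knockdown. Only the Tead4 knockdown was close to silent. With Tfap2c dsRNA added the level overlapped the control over both crosses together, but within each cross it was below both control libraries. The change after Tead4 dsRNA was -3.34 on the log2 scale without Tfap2c dsRNA and -1.34 with it, both past the threshold (limma adjusted p = 8.68e-08 and 0.015). This gave a non-additive part of 2.00 (SE 0.26, limma adjusted p = 0.00848). On the linear scale the sign turned: the single differences add up to 20.6 FPKM, above the measured mean of 14.8 FPKM, and the test did not pass (limma adjusted p = 0.605). Abcb1b is a close copy of Abcb1a, so reads may be split between them.

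Cnn3, the actin-binding protein calponin 3, measured 139, 157, 129 and 171 FPKM in the GFP control, 300, 306, 232 and 258 in the Tfap2c knockdown, 53, 51.1, 52.4 and 51.2 in the Tead4 knockdown and 200.4, 202, 169 and 187 in the double knockdown. The Tead4 knockdown was below and the Tfap2c knockdown above all other libraries, and double knockdown B1 lay just under the highest control library. The change after Tead4 dsRNA was -1.49 without and -0.52 with Tfap2c dsRNA (limma adjusted p = 4.35e-07 and 0.0446). The non-additive part was 0.97 (SE 0.13, limma adjusted p = 0.00851), with a predicted mean of 96.1 FPKM. In FPKM the single differences add up to 177 FPKM, near the measured mean of 189.8 FPKM (limma adjusted p = 0.86 on the linear scale).

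Akr1b8, an aldo-keto reductase, measured 27.6, 26.8, 10 and 18.5 FPKM in the GFP control, 96.2, 60.4, 29.3 and 47.4 in the Tfap2c knockdown, 4.06, 2.83, 1.18 and 1.24 in the Tead4 knockdown and 32.4, 29.5, 31.4 and 36 in the double knockdown. The double knockdown varied less between libraries than the control did and lay above every control library. This gave a non-additive part of 1.99 (limma adjusted p = 0.0279), and on the linear scale it turned to -0.27 of the gene's mean (adjusted p = 0.863 by limma). Igf2bp1, an mRNA-binding protein, had means of 23.7 ± 3.37, 28.1 ± 3.9, 8.61 ± 3.57 and 26.7 ± 1.16 FPKM (SD, n = 4) in the GFP control, the Tfap2c, the Tead4 and the double knockdown. Its non-additive part passed on both scales (limma adjusted p = 0.0287 on the log2 and 0.0431 on the linear scale). It was the one gene of the 11 to do so.

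In Tmem38b, Havcr1 and Clic3 too, the Tfap2c knockdown had the highest and the Tead4 knockdown the lowest mean. Tmem38b, an ion channel of intracellular membranes, had means of 36.4 ± 3.73 FPKM in the GFP control (SD, n = 4), 48.8 ± 5.59 after Tfap2c dsRNA, 9.28 ± 1.73 after Tead4 dsRNA and 33.3 ± 8.37 after both. Havcr1, a membrane receptor also known as KIM-1, had 30.2 ± 4.45, 50.4 ± 14.5, 9.18 ± 1.54 and 34.7 ± 9.72 FPKM. Clic3, an intracellular chloride channel protein, had 11 ± 3.4, 12.1 ± 2.43, 1.06 ± 0.846 and 6.08 ± 2.1 FPKM. Their non-additive parts were 1.31, 1.10 and 1.66 (limma adjusted p = 0.0262, 0.0425 and 0.0425). Igf2bp1, Havcr1 and Tmem38b were named after their values were seen.

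Genes that were above the control in both single knockdowns made up 39 of the 42 below the predicted value. Their median change was 0.80 after Tfap2c dsRNA, 0.68 after Tead4 dsRNA and 0.34 after both, so the double knockdown was on balance nearer to the control than either. The genes were chosen on these same values, so this is a description. Of the 39 genes, 29 passed as higher after Tfap2c dsRNA alone (16.3% of all genes did) and 30 after Tead4 dsRNA alone (3.35%). Both single changes passed for 21 of the 39 genes, and 14 passed in the double knockdown (25.1% of all genes did). The single changes enter the non-additive part, so these counts partly follow from the choice.

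Zfp771, a zinc finger protein gene, had the lowest non-additive part. It measured 2.17, 0.841, 2.83 and 1.05 FPKM in the GFP control, 3.48, 4.88, 4.64 and 5.9 in the Tfap2c knockdown, 5.67, 5.97, 6.96 and 5.61 in the Tead4 knockdown and 0.38, 1.3, 1.13 and 3.38 in the double knockdown. The single knockdowns were above every control library, and the double knockdown overlapped the control. The non-additive part was -2.71 (SE 0.39, limma adjusted p = 0.00851), with -3.02 in cross A and -2.41 in cross B.

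Ezr encodes ezrin, which ties actin filaments to the apical membrane. It measured 2.61, 3.52, 3.54 and 1.77 FPKM in the GFP control, 8.21, 7.13, 8.53 and 7.73 in the Tfap2c knockdown, 7.34, 5.64, 13.2 and 13.1 in the Tead4 knockdown and 2.89, 3.49, 10.2 and 5.07 in the double knockdown. Both single knockdowns were above every control library. In the double knockdown A1 and A2 were at control levels and B1 was among the single knockdowns. This gave a non-additive part of -2.04 (SE 0.37, limma adjusted p = 0.0279), and it was lost in 9 of the 16 fits with a library left out (adjusted p up to 0.0708, without double knockdown A1). On the linear scale the limma adjusted p was 0.0593.

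Khdc3, a maternal transcript whose protein belongs to the subcortical maternal complex of the egg, measured 40.9, 35.4, 50.7 and 54.4 FPKM in the GFP control and 75.2, 57.8, 52.8 and 61.9 in the Tfap2c knockdown. It measured 68.3, 55.1, 119 and 98 FPKM in the Tead4 knockdown and 19.8, 26.4, 27.6 and 51.1 in the double knockdown. The double knockdown was the lowest group, and library B2 overlapped the control. The non-additive part was -1.89 (SE 0.30, limma adjusted p = 0.0225).

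Unc119b, a carrier of lipid-modified proteins, measured 4.83, 4.65, 6.68 and 2.94 FPKM in the GFP control, 11.2, 11.5, 11.7 and 16.5 in the Tfap2c knockdown, 12, 12.3, 8.01 and 8.01 in the Tead4 knockdown and 5.72, 8.28, 5.99 and 7.04 in the double knockdown. The single knockdowns were above every control library, and the double knockdown overlapped both the control and the Tead4 knockdown. Its non-additive part was -1.77 (SE 0.29, limma adjusted p = 0.0226). Sac3d1, a protein of the centrosome, had means of 9.06 ± 3.41, 21.3 ± 7.91, 20.4 ± 3.33 and 13.5 ± 7.11 FPKM (SD, n = 4) in the GFP control, the Tfap2c, the Tead4 and the double knockdown, and a non-additive part of -1.85 (limma adjusted p = 0.0279).

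Cdkn1a, the cell cycle inhibitor p21 and a target of p53, was above the control in the double knockdown too. It measured 56.2, 87.8, 197 and 147 FPKM in the GFP control, 266, 207, 465 and 567 in the Tfap2c knockdown, 143, 181, 397 and 426 in the Tead4 knockdown and 236, 186, 518 and 529 in the double knockdown. Within each cross all knockdown libraries were above the control, and the double knockdown was at the level of the Tfap2c knockdown. This gave a non-additive part of -1.29 (SE 0.20, limma adjusted p = 0.0192), from a predicted mean of 814 FPKM. In FPKM the single differences add up to 541 FPKM, and the linear test did not pass (limma adjusted p = 0.213).

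Fgf3, a ligand of FGF receptors, and E2f5, an E2F family transcription factor, were also above the control in all knockdown groups, and both were named after their values were seen. Fgf3 had means of 4.09 ± 2.2 FPKM in the GFP control (SD, n = 4), 11.6 ± 5.36 after Tfap2c dsRNA, 14.5 ± 6.54 after Tead4 dsRNA and 15.5 ± 7.4 after both. E2f5 had 5.7 ± 1.99, 18.2 ± 4.74, 14.8 ± 4.82 and 22.2 ± 9.69 FPKM in the same order. Their non-additive parts were -1.24 and -1.02 (limma adjusted p = 0.0262 and 0.038). Neither passed on the linear scale (limma adjusted p = 0.372 and 0.603).

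Ier3, an immediate early stress gene, and Tekt2, a structural protein of cilia, were higher mostly after Tfap2c dsRNA. Ier3 measured 0.0709, 0.216, 0.197 and 0.388 FPKM in the GFP control, 6.6, 6.49, 9.2 and 2.83 in the Tfap2c knockdown, 0.382, 0.541, 0 and 0.372 in the Tead4 knockdown and 1.55, 1.1, 1.76 and 0.538 in the double knockdown. Tead4 dsRNA made no detectable difference alone (0.11, limma adjusted p = 0.876) but the double knockdown was below the Tfap2c knockdown (-1.65, limma adjusted p = 0.0257). Tekt2 had means of 6.68 ± 2.86, 44.1 ± 6.39, 15.3 ± 4.3 and 33.2 ± 19.1 FPKM (SD, n = 4). The non-additive parts were -1.76 and -1.67 (limma adjusted p = 0.0425 and 0.0425). For Tekt2 cross A gave -0.89 and cross B -2.45, a difference that did not pass.

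Pgp (phosphoglycolate phosphatase), Polr2m (a subunit bound to RNA polymerase II) and Yipf4 (a Golgi membrane protein) had their highest level after Tfap2c dsRNA. Yipf4 measured 44.5, 32.6, 54.1 and 31.7 FPKM in the GFP control, 74.1, 80.6, 96.4 and 99.2 in the Tfap2c knockdown, 56.7, 60, 52.9 and 52.1 in the Tead4 knockdown and 31.5, 56.3, 33.4 and 63.3 in the double knockdown. Double knockdown A1 and B1 were at control levels while A2 and B2 were among the Tead4 knockdown libraries or above. Polr2m (22.1, 37.5, 15.1 and 32.2 FPKM) and Pgp (40.5, 85.3, 38.7 and 55.5 FPKM) had their higher double knockdown values in the same libraries, A2 and B2. Their non-additive parts were -1.43 for Yipf4, -1.44 for Polr2m and -1.53 for Pgp (limma adjusted p = 0.0425, 0.0425 and 0.0447).

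In a last set of 3 genes the level was low with Tfap2c dsRNA whether or not Tead4 dsRNA was present, and high with Tead4 dsRNA alone. Defb19, a beta-defensin, measured 0.402, 0, 0.749 and 0.907 FPKM in the GFP control and 3.63, 7.65, 6.6 and 4.28 FPKM in the Tead4 knockdown, and was listed at 0 in all 8 libraries that had received Tfap2c dsRNA. Its non-additive part was -2.11 on the log2(FPKM + 1) scale (limma adjusted p = 0.00851), and no fold can be given against groups at 0. With both of those groups at 0, the non-additive part of Defb19 is its change after Tead4 dsRNA (2.11) with the sign turned. The 8 libraries at 0 have no spread among them, which lowers the spread behind its p-value. Spint1, an inhibitor of membrane-bound serine proteases, had means of 26.1 ± 9.77, 12.8 ± 3.71, 46.3 ± 17.5 and 12.6 ± 6.18 FPKM (SD, n = 4). Agpat3, an enzyme of phospholipid synthesis, had 2.71 ± 0.992, 0.639 ± 0.201, 7.82 ± 1.49 and 0.464 ± 0.386 FPKM in the same order. In both genes the Tead4 knockdown was above the control, and the double knockdown was as low as the Tfap2c knockdown. The non-additive parts were -0.88 for Spint1, which was named after its values were seen, and -1.47 for Agpat3 (limma adjusted p = 0.0375 and 0.0425).

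The non-additive part can also be read as how far each dsRNA had its effect in the presence of the other. Adding Tfap2c dsRNA to the Tead4 knockdown gave 2712 genes (23.7%), against 3377 for Tfap2c dsRNA alone. Adding Tead4 dsRNA to the Tfap2c knockdown gave 16 genes (0.14%), 4 higher (0.035%) and 12 lower (0.105%), against 700 for Tead4 dsRNA alone. Both comparisons had 4 libraries a group in the same fit. Tead4 itself was among the 16 (-1.52, limma adjusted p = 0.0257), as was Amotl2, an angiomotin family member that binds YAP. The fall of Tead4 was smaller here than after Tead4 dsRNA alone, from a level already lower after Tfap2c dsRNA. The part of this in the numbers of genes was not tested. Amotl2 measured 7.01, 5.98, 10.1 and 9.95 FPKM in the GFP control, 9.03, 11.5, 15.4 and 21.8 in the Tfap2c knockdown, 0.0351, 0.0994, 0.556 and 0.327 in the Tead4 knockdown and 1.99, 1.68, 2.49 and 3.7 in the double knockdown. Its change after Tead4 dsRNA was -2.88 without and -2.12 with Tfap2c dsRNA, past the threshold in both (limma adjusted p = 5.48e-08 and 4e-06), and its non-additive part of 0.76 did not pass (limma adjusted p = 0.114).

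**Figure D3:**
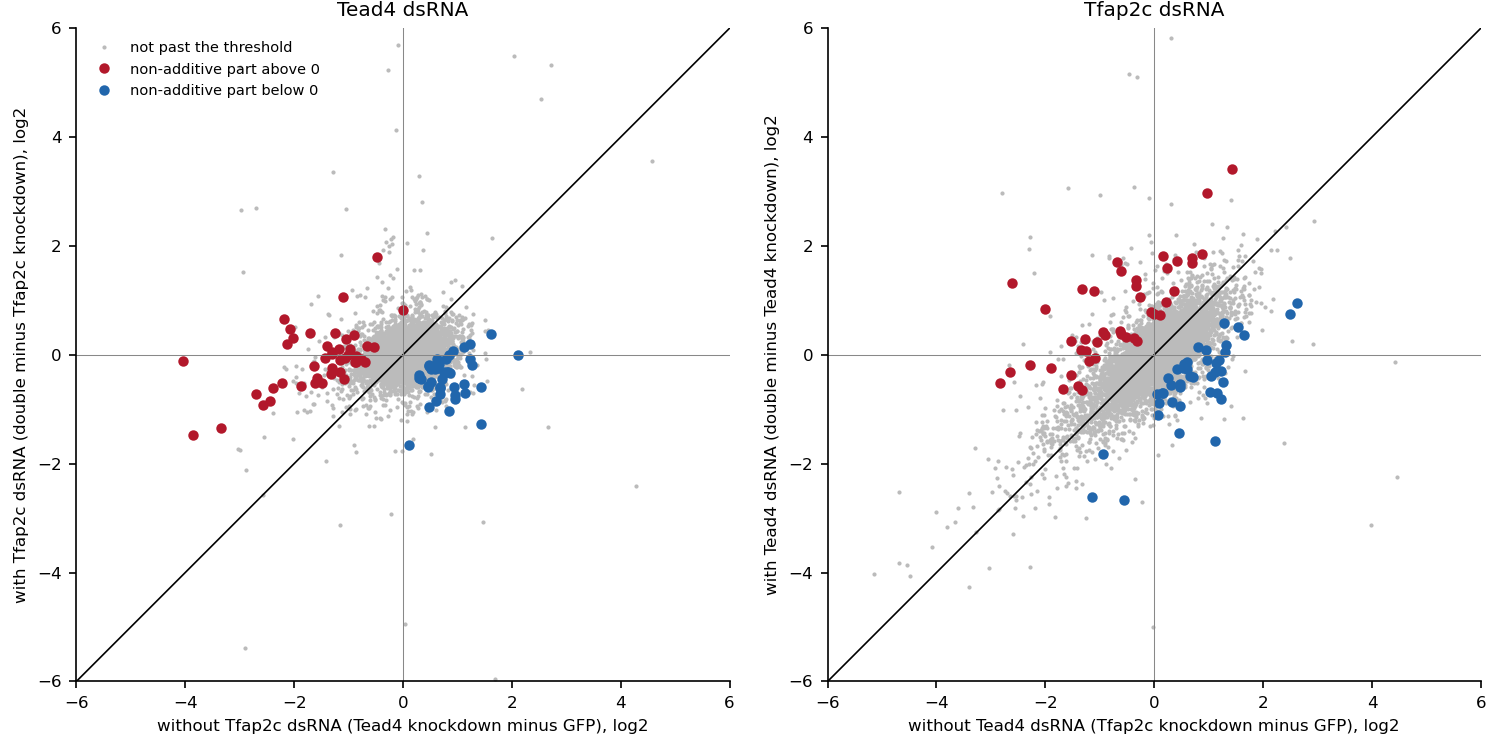
Change after Tead4 dsRNA (left) and Tfap2c dsRNA (right) in log2(FPKM + 1), without the other dsRNA on the x axis and with it on the y axis; grey points are the genes tested, red and blue points the 44 and 42 genes past the threshold, and 4 genes per panel lie beyond the axes. The line marks equal changes, and on the y axis of the left panel 5 of the coloured genes passed a test of their own.

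To set these effects side by side without choosing genes by the values read, genes were chosen in the libraries of 1 cross and read in the other. Of the genes past the threshold for Tead4 dsRNA in cross A, 141 were lower. In cross B their median change was -0.91 without Tfap2c dsRNA and -0.18 with it, and 94.3% were less reduced with it, or increased. For the 109 higher genes the medians were 0.56 and 0.06, with 83.5% less increased or reduced. The medians over all genes in cross B were 0.05 and 0.00. When cross B chose the genes, the medians in cross A were -1.20 and -0.49 for 53 lower genes, and 0.49 and 0.16 for 28 higher genes.

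For Tfap2c dsRNA the medians differed less. The 836 genes lower in cross A had a median of -0.91 in cross B without Tead4 dsRNA and -0.72 with it, and the 940 higher genes 0.57 and 0.40. The 1156 genes lower in cross B had medians of -0.56 and -0.50 in cross A, and the 1062 higher genes 0.54 and 0.41. The median with the other dsRNA was 0.705 to 0.902 of that without it for Tfap2c dsRNA, and 0.105 to 0.404 of it for Tead4 dsRNA. Genes were chosen on the change without the other dsRNA, so a smaller median with it is given as a description and was not tested. After Tfap2c dsRNA alone, the 141 lower and 109 higher genes had medians of -0.35 and 0.34 in cross B, and the 53 lower and 28 higher genes -0.01 and -0.15 in cross A. The medians thus had the direction of the Tead4 change in cross B, while in cross A that of the lower genes was near 0 and that of the higher genes opposite.

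**Figure D4:**
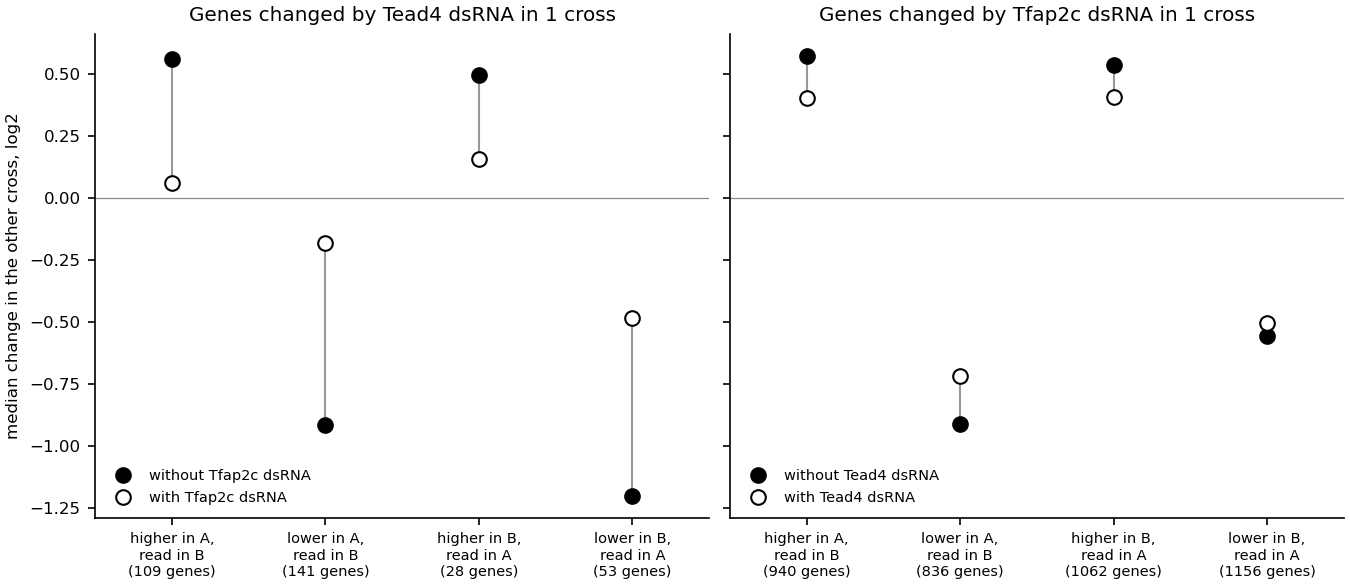
Median change in log2(FPKM + 1), read in 1 cross, of genes chosen in the other cross, for Tead4 dsRNA (left) and Tfap2c dsRNA (right); filled circles are without and open circles with the other dsRNA, and the numbers of genes stand under each pair. The open circles of the left panel are nearer to 0 than the filled ones in all 4 sets, and the gaps are smaller in the right panel.

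Gene lists of the pathways around both factors held few of the 86 genes. Their counts stand against 0.753% of all genes past the threshold and 12% at an unadjusted p under 0.05. Of 10 tested targets of YAP and TEAD none passed for the non-additive part in limma (6 at an unadjusted p under 0.05, where 12% of all genes were), with a median of 0.30 against -0.06 over all genes, while 5 were lower after Tead4 dsRNA alone (2.78% of all genes were). Ctgf, a secreted matrix protein, measured 1.39, 3.49, 5.12 and 4.82 FPKM in the GFP control, 11.9, 9.03, 10.6 and 11.4 in the Tfap2c knockdown, 0.0383, 0.0637, 0.0292 and 0.464 in the Tead4 knockdown and 9.11, 8.73, 7.41 and 4.39 in the double knockdown. Only the Tead4 knockdown was near 0, yet the non-additive part of 1.44 (SE 0.38) did not pass (limma adjusted p = 0.1). Of 19 tested Hippo pathway genes Vgll4 passed, of 49 actin regulators Cnn3, of 17 junction genes Marveld2, and of 11 genes of the apical cortex Ezr. Of 30 trophectoderm genes Abcb1a, S100a11 and Dab2 passed, all above the predicted value (0.385% of all genes were), with a list median of 0.31. Dab2 was also the 1 gene to pass of 10 tested on a list for the primitive endoderm, another early lineage. List members were chosen with earlier results of these data known, so the counts are a description. Of 43 genes of endocytosis and lysosomes Dab2 and Ap2a2, a subunit of the clathrin adaptor, passed.

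None of 21 polarity genes passed in limma, and 3 had an unadjusted p under 0.05, a share near the 12% of all genes. Pard6b, a Par complex subunit, had a non-additive part of 0.26 (95% interval -0.33 to 0.85) and Rhoa, a GTPase of the cortex, -0.29 (-0.52 to -0.05), with limma adjusted p values of 0.772 and 0.284. Of 30 pluripotency genes Lin28a passed. Pou5f1 had a non-additive part of -0.18 (-0.97 to 0.60) and Nanog of 0.66 (-0.37 to 1.69), neither past the threshold (limma adjusted p = 0.89 and 0.645). Of 27 genes of the p53 and stress list Cdkn1a passed, and the median was -0.41, with 13 higher after Tfap2c dsRNA alone (16.3% of all genes were) and 5 after Tead4 dsRNA alone (3.35%). Of 24 oocyte transcripts Khdc3 passed, and of 28 transcripts of the 2-cell stage Gm4340, where the list median was 0.49. None of 16 interferon and dsRNA response genes passed in limma (3 at an unadjusted p under 0.05, against 12% of all genes), with a median of -0.15. Trophectoderm factor Gata3 had 0.62 (-0.29 to 1.53, limma adjusted p = 0.622). Cdx2, Sox2 and Tfap2a were below the filter, with highest values of 0.341, 0.388 and 0.0276 FPKM.

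On the linear scale, where the single differences in FPKM add instead of multiply, 75 genes departed from the sum, 34 above and 41 below, and 44 of them were among the 86. Of the 86 genes 84 kept their sign there. Of the 32 genes below the control in both single knockdowns 20 passed on both scales, and so did 20 of the 39 above it in both. For 26 of those 32, and 16 of the 20 that passed, the single differences add up to less than 0 FPKM, which no library can reach, so their sign on this scale was fixed and their calls are given as a description. Of the 11 with opposite single changes 1 passed and 9 kept their sign, so for this shape the call rested on the log2 scale. The number of genes also depended on single libraries and ranged from 12 without GFP control B2 to 113 without double knockdown A2.

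**Figure D5:**
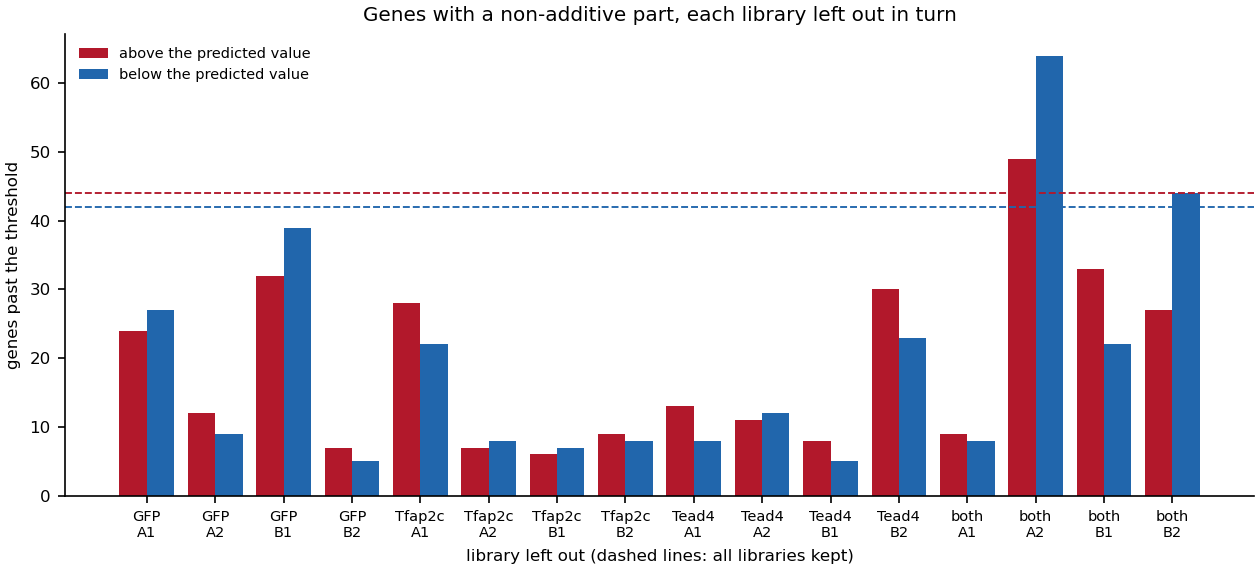
Number of genes with a non-additive part past the threshold when each of the 16 libraries is left out in turn; red bars count genes above and blue bars genes below the predicted value, and the dashed lines mark the 44 and 42 genes with all libraries. The total fell to between 12 and 71 for 15 of the libraries and was 113 without double knockdown A2.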

How the data were processed

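Polyadenylated RNA of 16 pools of 8-cell embryos was sequenced by a Smart-seq2 procedure. The submitters' processing notes name CASAVA, Trim Galore, STAR, Cufflinks and mm10; the sources used here give neither versions nor an annotation. The values that the authors deposited are FPKM, with 1 value per gene and library. Repeated identifiers (59) were summed. Absolute depth is unknown, so precision rests on the spread between libraries; relative depth, estimated from steps of low values, ran from 0.908 to 1.09. Mitochondrially encoded genes held 7.06% to 12.1% of FPKM.

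After taking log2(FPKM + 1), group and cross were fitted over all 16 libraries in limma 3.58.1 (R 4.3.3), with eBayes and a variance trend. Tests were two-sided with a Benjamini-Hochberg threshold of 0.05, and the script was tested on simulated data. The linear scale divided FPKM by the gene's mean. Named genes were the 12 highest and 12 lowest past the threshold with a mean of at least 5 FPKM in a group, the same sign in both crosses and an official symbol, plus up to 3 members per list by lowest p; those named outside this rule are marked. Members and lists were chosen with earlier results of these data known. Locations are from RefSeq, GRCm38.p6.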

Additional observations from a re-analysis of the deposited data

Results flagged for a closer look

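Dab2 in the Tead4 knockdown had 1 library apart from the others: B2 measured 10.2 FPKM against 2.20 to 3.34 FPKM in the other 3, a gap of 0.858 of the group's range in FPKM. Unc119b in the Tfap2c knockdown had library B2 at 16.5 FPKM against 11.2 to 11.7 FPKM in the others, a gap of 0.917 of the range. These 2 were found among 96 groups of 4 libraries examined, of which chance alone sets apart about 1 in 20. The non-additive part of both genes had the same sign without either library.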

How the results depend on the processing

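Of the 86 genes, all that an alternative tested kept the sign of the non-additive part, except Abcb1a (-0.32) and Akr1b8 (-0.27) on the linear scale. The number past the threshold was far less stable. Against 86 (44 above, 42 below), leaving out 1 library gave 12 to 113 in all, 6 to 49 above and 5 to 64 below. With no filter on low values it was 14 (7 and 7), and with a mean of at least 5 FPKM 62 (25 and 37). Without the cross term it was 7 (4 and 3), within cross A 2 (2 and 0) and within cross B 3 (3 and 0), with 1227 and 1239 genes at an unadjusted p under 0.05. Pseudocounts of 0.1 and 0.5 gave 76 and 83, no variance trend 63 and the linear scale 75. Median-ratio rescaling gave 71 (52 and 19) and quantile normalization 67 (47 and 20), which moved the median of all genes from -0.06 to 0.02 and -0.01, so the near-even split depends on the scaling. With the library number as a replicate block it was 36 (22 and 14). The numbers do not pair the libraries: correlations of same-numbered libraries within a cross ran from -0.165 to 0.176, 2 of 12 were over 0.1, and 6 of 16 libraries correlated best with their own number. With genes chosen in cross B instead of A, the median with the other dsRNA relative to that without it moved from 0.105 to 0.317 for genes higher and from 0.199 to 0.404 for genes lower after Tead4 dsRNA. Why the counts moved was not tested. With 4 libraries a group, no non-additive part smaller than 0.57 in size passed.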

Other observations

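Values of some other genes past the threshold follow, picked after their values were seen and from no fixed list. Ptpn11, a phosphatase that passes on signals from growth factor receptors, had means of 4.89 FPKM in the GFP control, 10.2 after Tead4 dsRNA and 6.76 after both. This gave it a non-additive part of -0.85 (limma adjusted p = 0.0354). Rras2, a RAS-related GTPase, was on the other side, with means of 11.3 FPKM in the GFP control, 3.9 after Tfap2c dsRNA, 6.23 after Tead4 dsRNA and 3.63 after both, and a non-additive part of 0.69 (limma adjusted p = 0.0425). Usp39, Usp47 and Ap3s1 were below the predicted value, with non-additive parts of -1.05, -0.86 and -0.88, and Ube2h and Ap2a2 above it, with 0.64 and 1.14. Atg3, an enzyme of autophagosome formation, measured 36.5 FPKM in the GFP control, 37.4 after Tfap2c dsRNA, 58.8 after Tead4 dsRNA and 27.1 after both, so that it was higher in the Tead4 knockdown than in any other group, with a non-additive part of -1.16 (limma adjusted p = 0.0408).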
